A study of Mus musculus with 8 samples.

Results

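Gene expression in splenic Gr1+ cells of mice that received lipopolysaccharide (LPS) followed by HY209 was compared with that in mice that received PBS only, to describe which transcripts stood away from the untreated level after the drug and which stood near it. The comparison uses 5 of the 8 arrays of the study, namely the 3 arrays of LPS followed by HY209 (numbered 1, 2 and 3, called the HY209 arrays here) and the 2 PBS arrays (numbered 1 and 3). The other 3 arrays come from mice given LPS without the drug, and their values are set beside those of the 5 arrays where they help to place a gene. All mice were female C57BL/6 animals of 6 to 8 weeks. LPS or PBS went into the peritoneum, HY209 or PBS into a vein 30 min later, and spleens were taken 48 h after the first injection. Gr1+ cells were sorted with magnetic beads from spleens pooled within a group (10 to 15 per pool in the extraction text, 30 to 40 in the design text), and more than 95% of them carried CD11b. No group received HY209 alone, so the drug can be read here only in animals that also had LPS. Expression was read on Illumina MouseRef-8 v2 bead arrays, on which each gene is represented by at least 1 probe whose brightness (intensity) follows the amount of its transcript. The spread behind each p-value is that between arrays, and whether arrays of a group came from separate pools of mice is not settled by the labels.

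LPS, a component of the outer membrane of Gram-negative bacteria, is sensed by Toll-like receptor 4 with CD14 and MD-2 and switches on NF-kB and interferon programmes in myeloid cells. The Gr1 antibody binds Ly6G on neutrophils and Ly6C on many monocytes, and Gr1+CD11b+ cells of the spleen expand in systemic inflammation, where some of them restrain T cells through arginase and interleukin 10. HY209 is sodium taurodeoxycholate, a bile salt that activates GPCR19, the membrane receptor for bile acids, whose gene is Gpbar1 and which raises cAMP. The probe of Gpbar1 read 131 to 150.3 on the 5 arrays, below the background threshold of 168.6 throughout, so the level of the receptor is not given. No probe named Ly6g was used.

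The sorted cells carried granulocyte transcripts at high level in both groups. They also carried transcripts of other spleen cells in both groups, at lower level after HY209 for the cell types below. The summed intensity of 8 measured neutrophil markers (S100a8, S100a9, Ltf, Camp, Cxcr2, Csf3r, Mmp8 and Itgam) was 200190 to 207549 on the PBS arrays and 183552 to 197501 on the HY209 arrays. S100a8 and Ltf, the brightest of them in PBS, lay near the top of the intensity scale there, where differences can be compressed. Mmp8 lay below background in PBS. The sum of 6 red pulp macrophage markers was 134918 to 140355 in PBS and 18170 to 19368 after HY209, although Cd5l among them lay below background on all arrays. For 4 B cell markers the sum was 30777 to 31760 in PBS and 9628 to 11373 after HY209, and for 6 T and NK cell markers it was 27176 to 28184 and 7368 to 10503. Of the latter, Cd8a lay below background on all arrays and Cd4 on all but PBS array 3. For 3 erythroid markers the sum was 13607 to 16258 and 4348 to 7016, with Epb42 below background. For 5 endothelial markers it was 5472 to 5932 and 1964 to 3023, with Kdr below background in PBS. In these bulk samples fewer cells of a type and less RNA per cell cannot be told apart, and the part that such cells had in the results below was not tested.

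The 2 groups differed over much of the transcriptome. On every array 13048 of 25697 probes (50.8%) lay above background, and 10252 genes were tested with 1 probe each, the brightest on average. The SD of the log2 differences over genes was 0.160 between the PBS arrays, 0.193 to 0.234 between HY209 arrays, and 0.688 to 0.748 between a HY209 and a PBS array. Of the genes tested, 2209 (21.5%) were higher and 2661 (26.0%) lower after HY209 at an adjusted p under 0.05 (limma, Benjamini-Hochberg). At least 2-fold changes that passed the test were found for 502 genes upward (4.90%) and 617 downward (6.02%), and among them 124 rose and 108 fell by at least 4-fold. For 4787 genes (46.7%) the 95% interval of the log2 change lay wholly within 0.5 either way, that is within 1.41-fold of the untreated level, and such genes are called near PBS. The arrays of the 2 groups did not overlap for 6623 genes (64.6%). Another 4346 genes (42.4%) were neither near PBS nor at least 2-fold changed past the test. Many of them passed the test with a smaller change, since 3751 of the 4870 genes that passed it changed by less than 2-fold. Being near PBS varied with brightness: 76.1% of the dimmest 2051 genes were near against 40.3% of the brightest 2051, and 252 of the near genes also passed the test for a change. Restricted to 7880 genes above background on all 5 arrays, 3198 (40.6%) were near. In what follows, ± after a log2 change is its standard error from the fit, n is 2 for PBS and 3 for HY209, intensities are the deposited values, and folds and log2 changes are taken after background correction, so that a fold is not the plain ratio of the intensities beside it. Against LPS alone, 628 genes (6.13%) were higher and 354 (3.45%) lower after HY209, and this total of 982 (9.58%) was 400 without HY209 array 1, 509 without LPS array 1 and 525 without LPS array 3. Comparisons with the LPS arrays share arrays with the comparison against PBS and are not independent of it.

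**Figure D1:**
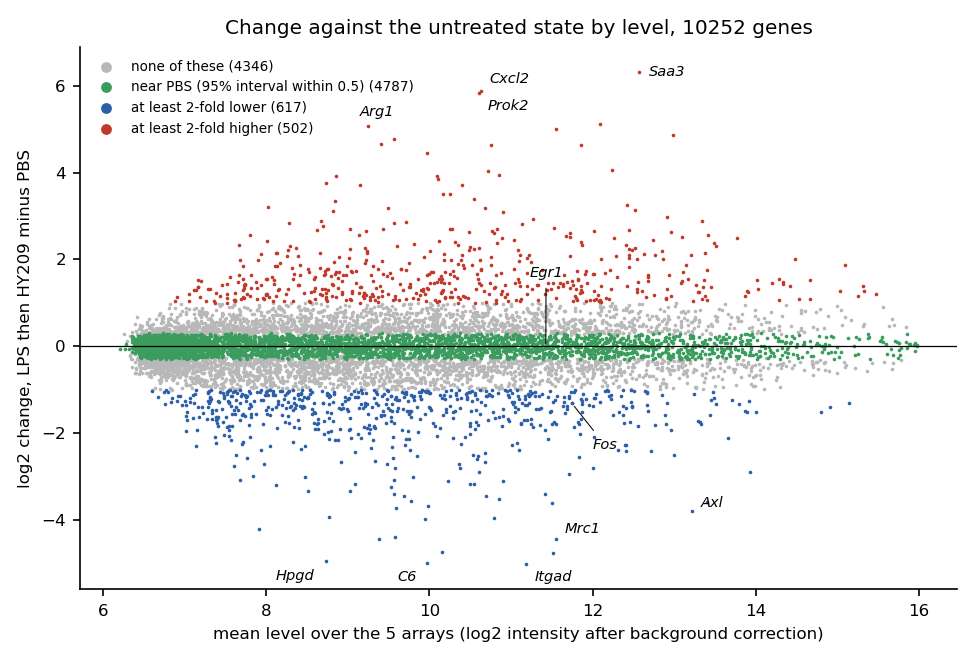
Log2 change of each of the 10252 genes (LPS then HY209 minus PBS, vertical axis) against its mean log2 level over the 5 arrays (horizontal axis), coloured by class. Red and blue points pass the test with at least 2-fold changes (502 higher and 617 lower), green points are near PBS (4787), and the largest rise (Saa3) and the largest fall (Itgad) stand at 6.33 and -5.03.

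Among the largest rises above the untreated level were those of Saa3, Cxcl2, Prok2 and Orm1. Saa3, an acute phase serum amyloid protein made by myeloid cells, read 432 and 592 on the PBS arrays and 35199, 34293 and 36027 on the HY209 arrays. The groups lay far apart, and the rise was 80.3-fold (log2 change 6.33 ± 0.13, adjusted p = 1.5e-11). Cxcl2, which attracts neutrophils through CXCR2, read 207 and 205 in PBS and 10488, 5533 and 9298 after HY209. HY209 array 2 was the lowest of the treated arrays, yet far above both PBS arrays, and the change was 5.87 ± 0.20 (adjusted p = 6.9e-10). Prok2, a secreted peptide of neutrophils, showed the same order of arrays, with 205 and 207 in PBS and 10284, 5586 and 8717 after HY209 (log2 change 5.83 ± 0.19, adjusted p = 4.6e-10). Orm1, the plasma carrier orosomucoid, went from 577 and 603 to 17539, 19422 and 17442 (5.11 ± 0.09, adjusted p = 1.1e-11). Arg1, the arginase that depletes arginine around T cells, was below background on both PBS arrays (147 and 136) and read 2214, 2979.6 and 2489.8 after HY209. Its rise is therefore a bound of at least 24.5-fold (adjusted p = 3.2e-11). Il10, the anti-inflammatory cytokine, read 175 and 169.6 in PBS, close to background, and 2752, 2881 and 3147 after HY209. All 3 treated arrays were clearly brighter, by 27.3-fold (log2 change 4.77 ± 0.09, adjusted p = 1.3e-11).

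The other large rises were of similar size on every treated array. They were Gpr84, which senses medium-chain fatty acids (5.01 ± 0.11), Upp1, the uridine phosphorylase (4.86 ± 0.08), the cysteine protease inhibitor Stfa2 (4.66 ± 0.13), the chemokine Ccl3 (4.65 ± 0.11), Ikbke, the IKK-epsilon kinase of interferon induction (4.65 ± 0.09), and the myeloid glycoprotein Gpnmb (4.45 ± 0.09). Stfa2 was not above background on all 5 arrays, so the size of its rise depends on values at the floor. Against LPS alone, Ccl3 was lower on the HY209 arrays (-0.60 ± 0.10, adjusted p = 0.004) and Orm1 slightly lower (-0.31 ± 0.08, adjusted p = 0.038), while the differences of Saa3 (0.07 ± 0.12, adjusted p = 0.76) and Arg1 (0.33 ± 0.11, adjusted p = 0.092) did not pass the test.

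Most inflammatory chemokines and cytokines stood above PBS. Of 34 tested members 22 rose and 7 fell, where 21.5% and 26.0% of all genes did. Their log2 changes had a median of 0.74 (0.65 with genes below background in a group at their bounds), and those of all genes one of -0.0043. The list's median was 0.76, 0.83 and 0.82 on the HY209 arrays and 1.03, 1.07 and 1.10 on the LPS arrays, each measured from the PBS mean. Ccl12, a monocyte attractant of the mouse, was below background in PBS and at least 13.6-fold higher, at 1564, 1245 and 1527. Tnf, the tumour necrosis factor, read 336 and 336 in PBS and 3140.2, 3238 and 2938 after HY209 (3.50 ± 0.09, adjusted p = 6.4e-11). Cxcl9, a chemokine for activated T cells induced by interferon gamma, read 1739 and 1899 in PBS, 16694, 16189 and 16643 after LPS and 9714, 10166 and 9803 after HY209. Its treated arrays lay between the other groups without overlap, at 2.49 ± 0.09 against PBS and -0.74 ± 0.08 against LPS (adjusted p = 7.0e-10 and 0.00034). Il1b was already bright in PBS (31710.1 and 34653) and read 39542, 38998 and 35615 after HY209, within the interval that defines a gene near PBS (0.20 ± 0.09). Members that fell included Ccl5, a T cell attractant, with 8318 and 9119 in PBS, 9867, 9539.5 and 10227 after LPS and 6524, 7434 and 6753 after HY209. Those values were below both other groups (-0.34 ± 0.10 against PBS, adjusted p = 0.011, and -0.52 ± 0.09 against LPS, adjusted p = 0.0044), although the fall against PBS did not pass the test without PBS array 3 (adjusted p = 0.12).

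Promoters of 2 neutrophil chemokines of this list hold the same NF-kB letters, and their sequences are shown because both genes rose, by different amounts (5.87 for Cxcl2 and 1.33 for Cxcl1). Cxcl1, unlike Cxcl2, was not above background on all 5 arrays, so the size of its rise depends on values at the floor. RefSeq windows (GRCm38.p6) were found for 8357 of the 10252 genes, and the motif GGGA, any base, TTTCC was searched on both strands from 250 bases before to 50 bases after each start. A gene was counted if any of its windows held the motif. This was so for 0.586% of all tested genes with a window and for 3 of 22 chemokine and cytokine genes with a window (13.6%), namely Cxcl1, Cxcl2 and Csf1. The 250 bases before the starts of Cxcl2 (chr5:90903649-90903898, plus strand) and Cxcl1 (chr5:90890995-90891244, plus strand) read as follows, 5′ to 3′, with the match in capitals, which begins 97 bases before the start in Cxcl2 and 71 bases before it in Cxcl1. A match describes the letters and shows no binding.
Cxcl2: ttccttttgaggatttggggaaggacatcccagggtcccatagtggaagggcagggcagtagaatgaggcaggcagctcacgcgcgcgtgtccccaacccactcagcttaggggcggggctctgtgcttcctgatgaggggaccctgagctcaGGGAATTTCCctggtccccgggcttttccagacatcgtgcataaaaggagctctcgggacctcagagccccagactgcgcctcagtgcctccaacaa
Cxcl1: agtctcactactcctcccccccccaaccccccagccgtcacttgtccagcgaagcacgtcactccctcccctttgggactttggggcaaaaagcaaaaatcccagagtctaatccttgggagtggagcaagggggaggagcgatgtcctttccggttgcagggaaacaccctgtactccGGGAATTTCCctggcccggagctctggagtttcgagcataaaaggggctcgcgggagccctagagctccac

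Acute phase and secreted myeloid genes had 22 of 28 members higher and 1 lower, and suppressor effectors 22 of 30 higher and 2 lower, with median log2 changes of 1.29 and 1.15. With genes below background in a group at their bounds, the first median was 1.07. F10, the coagulation factor X, was at 889 and 1034 in PBS and 13728, 16669 and 14451 after HY209 (4.06 ± 0.11), and Mmp14, a membrane metalloproteinase, at 436 and 417 and 5844, 5219 and 5713 (3.94 ± 0.09). The groups did not overlap for either gene. Cd274, which encodes the T cell inhibitor PD-L1, rose from 3919.7 and 4107 to 17865, 15956 and 17265 (2.10 ± 0.09, adjusted p = 4.1e-09). Il1rn, the natural antagonist of interleukin 1, changed by 2.46 ± 0.08. Nos2, the inducible nitric oxide synthase, stayed dim, with 176 and 137 in PBS and 226, 204 and 183 after HY209 (0.65 ± 0.19, adjusted p = 0.014, or 0.33 with an adjusted p of 0.23 without PBS array 3, and 0.54 with one of 0.056 without HY209 array 1). Members that fell were the growth factor Tgfb1 (-0.99 ± 0.14), the ectonucleotidase Nt5e (-1.02 ± 0.11) and, in the acute phase list, the collagenase Mmp13. Mmp13 read 903 and 858 in PBS, 906, 829.8 and 832 after LPS and 482, 376 and 432 after HY209. The first 2 groups overlapped and the HY209 arrays lay below both (-1.18 ± 0.12 against PBS, adjusted p = 6.2e-06, and -1.13 ± 0.11 against LPS, adjusted p = 0.00017).

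Several genes that brake LPS and NF-kB signalling were raised, as were some that sense LPS. Others that carry the signal were near PBS or lower. Of 30 NF-kB, MAPK and cytokine feedback genes, 23 rose and 1 fell, with a median of 0.82. Nfkbia, the inhibitor that holds NF-kB in the cytoplasm, read 2153 and 2109.6 in PBS and 10989.8, 10227 and 10025 after HY209 (2.32 ± 0.10). Irak3, which blocks signalling below Toll-like receptors, read 2679 and 2828 and 16509, 16509 and 16983 (2.63 ± 0.09), and Dusp16, a phosphatase of MAP kinases, 1633 and 1693 and 14090.2, 14090.2 and 13966 (3.13 ± 0.08). Cish, a brake on STAT5, changed by 3.10 ± 0.09 and Tnfaip3, the ubiquitin-editing enzyme A20, by 2.26 ± 0.09. The NF-kB subunit Rela (-0.06 ± 0.09) and the ERK phosphatase Dusp6 (-0.03 ± 0.11) were near PBS, and Ikbkb, the kinase that marks NF-kB inhibitors for decay, was the member that fell (-0.33 ± 0.12, adjusted p = 0.041). Its call was lost under several alternatives, with an adjusted p of 0.05 to 0.38, the highest without PBS array 3. The LPS sensing list had 21 of 29 members higher and 4 lower (median 0.56). Cd14, the LPS co-receptor, read 5127 and 4967 in PBS and 27705, 27258 and 29050.2 after HY209 (2.49 ± 0.09), and Lbp, which hands LPS to CD14, 269.7 and 269 and 851, 942 and 924 (2.05 ± 0.10). Those that fell were Cd180 (-1.46 ± 0.16) and its partner Ly86 (-1.21 ± 0.13), which form a receptor complex abundant on B cells, the RNA sensor Tlr8 (-1.15 ± 0.20), and Irf3, a transcription factor of interferon induction (-0.24 ± 0.09, adjusted p = 0.048). The call of Irf3 was lost under most alternatives, among them leaving out either PBS array (adjusted p = 0.22 and 0.11) or any HY209 array (0.054 to 0.10), and the mean over all its probes was -0.0037.

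The interferon response was broadly raised. Of 48 tested genes 42 rose and 3 fell, and the median change was 1.11, with array medians of 1.10, 1.05 and 1.17 after HY209 and 1.14 to 1.25 after LPS. Isg15, a ubiquitin-like protein, read 1343 and 1539 in PBS and 8455, 9124 and 8599.8 after HY209 (2.66 ± 0.10, adjusted p = 1.3e-09). Ifit2, which binds viral RNA, changed by 2.40 ± 0.13, the transcription factor Irf7 by 2.11 ± 0.10 and the exonuclease Isg20 by 2.12 ± 0.11. Compared with LPS alone, 0 members were higher and 3 lower, where 6.13% and 3.45% of all genes were, and nothing is read from these counts. Isg20 was among the lower ones (-0.50 ± 0.10, adjusted p = 0.012). Irf1 (-0.02 ± 0.09) and Gbp3 (0.08 ± 0.16), both induced by interferon gamma, were near PBS on the probes used. The members that fell were Ifi27 (-1.11 ± 0.12), the myeloid transcription factor Irf8 (-0.95 ± 0.18) and the ubiquitin-like Ubd, which read 1632 and 1572 in PBS, 1753, 1586 and 1711 after LPS and 998, 1166 and 1180.4 after HY209. Ubd was lower on the HY209 arrays than in both other groups (-0.56 ± 0.10 against PBS, -0.63 ± 0.09 against LPS, adjusted p = 0.0008 and 0.0024).

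The letters of an interferon-stimulated response element, GAAA, any 2 bases, GAAA on either strand, were in 18 of 37 interferon genes with a window (48.6%) and in 3.95% of all tested genes with a window. Isg15, the member with the largest rise, is shown because it holds 3 overlapping matches in the 250 bases before its start (chr4:156200819-156201068, minus strand, GRCm38.p6), the first beginning 78 bases and the last 66 bases before it. The sequence is written 5′ to 3′ along the gene, with the matches in capitals.
Isg15: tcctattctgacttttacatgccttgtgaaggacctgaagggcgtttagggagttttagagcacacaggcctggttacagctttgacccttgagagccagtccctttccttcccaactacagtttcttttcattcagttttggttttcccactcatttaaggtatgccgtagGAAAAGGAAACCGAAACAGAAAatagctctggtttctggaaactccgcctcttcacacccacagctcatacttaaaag

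Most neutrophil granule and maturity genes were higher after HY209. Of 35 granule and maturity genes 28 rose and 4 fell, with a median of 1.21. Il1r2, a decoy receptor for interleukin 1, read 2200.1 and 2441 in PBS and 17265, 17291 and 18609.7 after HY209 (2.97 ± 0.10), and Itgam, which encodes CD11b, 506 and 565 and 2263, 3129 and 2359 (2.41 ± 0.16). Olfm4, a protein of specific granules, read 430.1 and 522 and 2412, 2869 and 1652 (2.43 ± 0.26). The alarmins S100a8 and S100a9 belong to the suppressor list. S100a8 (59488 and 58139.6 in PBS, 61338, 59488 and 62809 after HY209) and S100a9 (38998 and 34768 and 38279.8, 40676 and 46238) overlapped between the groups, at 0.06 ± 0.08 and 0.18 ± 0.11, and lay near the top of the scale, where differences can be compressed. The 4 granule and maturity genes that fell were the lysozyme Lyz2 (-1.51 ± 0.14), the lactoferrin Ltf (-0.32 ± 0.09), the cathelicidin Camp (-0.38 ± 0.11) and the ficolin Fcnb (-0.43 ± 0.15), and the last 3 did not pass without PBS array 3 (adjusted p = 0.056, 0.068 and 0.25), nor Ltf and Camp without PBS array 1 (0.099 and 0.063), nor Fcnb without HY209 array 2 (0.086). Ltf was also close to the top of the scale (65787 and 63374 in PBS), where a change can be compressed. The neutrophil chemokine receptor Cxcr2 read 6939.8 and 8947 in PBS and 7892, 9429 and 6234 after HY209, with overlapping groups (-0.03 ± 0.18). In primary granules, which form in early precursors, the serine proteases Prtn3 (1.79 ± 0.15) and Elane (0.94 ± 0.12) and the myeloperoxidase Mpo (from 277 and 276 to 492, 459 and 505) rose. The list as a whole had 6 of 13 higher (46.2%, against 21.5% of all genes) and 3 lower (23.1%, against 26.0%). Those that fell were the growth factor binder Igfbp4 (-1.56 ± 0.17), the cytotoxic granule protein Nkg7 (-1.42 ± 0.18) and Ctsc, the cathepsin that activates granule serine proteases (-1.26 ± 0.10). Nkg7 is also counted among the T and NK cell genes below. Mpo was also above LPS alone (0.42 ± 0.08, adjusted p = 0.01), as was the cathepsin Ctsg (0.47 ± 0.11, adjusted p = 0.022).

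**Figure D2:**
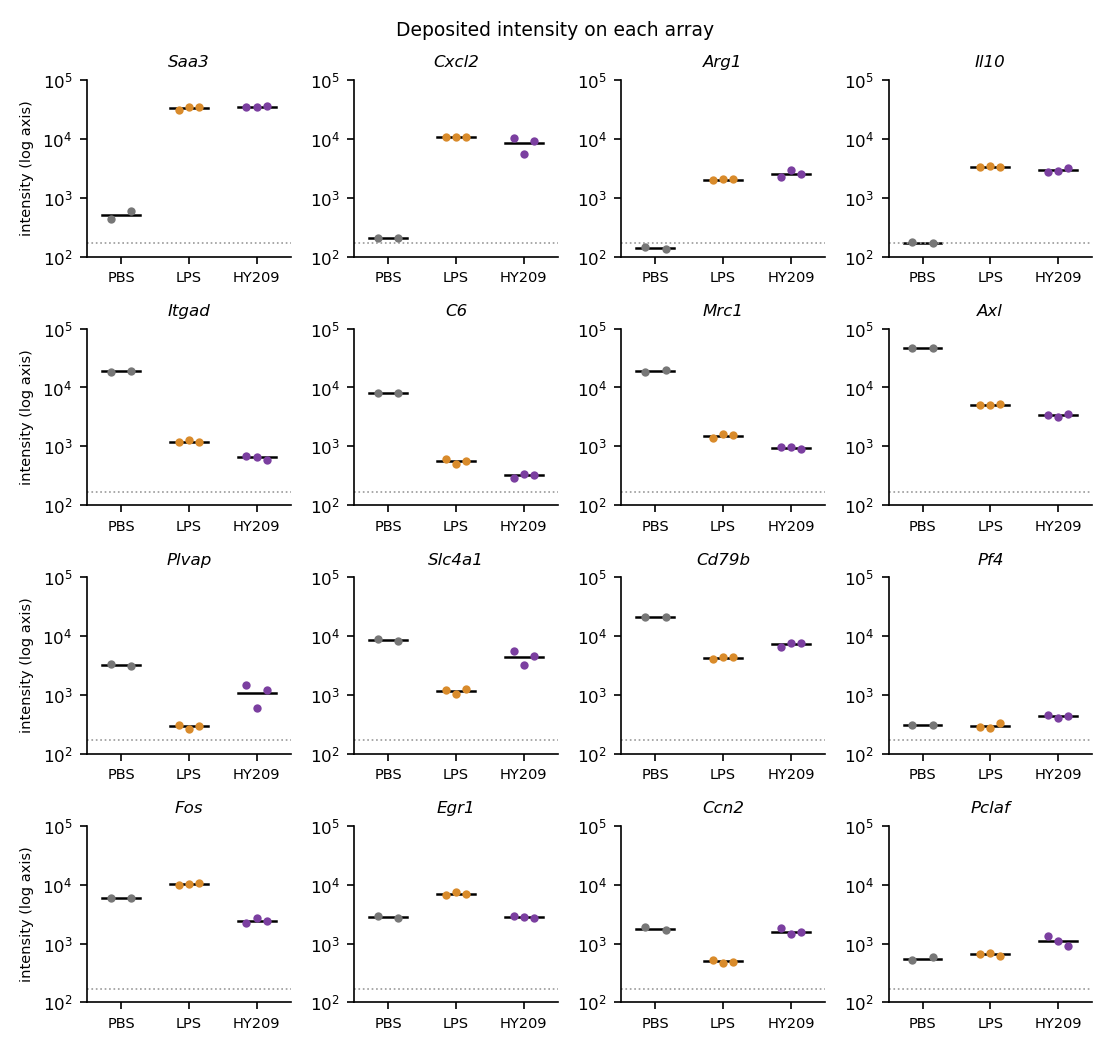
Deposited intensity (log axis) of 16 genes on each of the 8 arrays, with points for arrays, bars for group means and a dotted line at the background threshold of 168.6. Saa3, Cxcl2, Arg1 and Il10 stand high and Itgad, C6, Mrc1 and Axl low in both LPS groups, while Egr1 and Ccn2 are level with PBS after HY209.

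Transcripts of resident spleen macrophages stood farthest below the untreated level. Of 30 tested genes of this list 28 fell, 27 of them at least 2-fold, and 1 rose, with a median log2 change of -2.81. The array medians were -2.65, -2.84 and -2.82 after HY209 and -2.41 to -2.51 after LPS, and 15 members were lower and 1 higher than with LPS alone, against 3.45% and 6.13% of all genes. Itgad, an integrin of red pulp macrophages, read 18669.7 and 19086 in PBS, 1164, 1265 and 1167 after LPS and 691, 652 and 596 after HY209. The 3 groups did not overlap, with changes of -5.03 ± 0.10 against PBS and -0.97 ± 0.09 against LPS (adjusted p = 1.3e-11 and 0.00011). C6, a component of the complement membrane attack complex, followed the same order, at 8133 and 7935, then 616, 508 and 567, then 295, 342 and 324 (-4.98 ± 0.11 and -0.97 ± 0.10). Mrc1, the mannose receptor, went from 18243 and 19933 in PBS to 970.1, 975 and 897 after HY209 (-4.43 ± 0.10, and -0.72 ± 0.09 against LPS). Axl, a receptor for apoptotic cells, was among the brighter genes in PBS at 46819 and 46238 and read 3386, 3204 and 3609 after HY209 (-3.80 ± 0.09, and -0.59 ± 0.08 against LPS).

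Among the other large falls, Hpgd, which inactivates prostaglandins, read 3354 and 3471 in PBS and 178, 170 and 179 after HY209, just above background (-4.96 ± 0.10). Trf, transferrin, changed by -4.75 ± 0.14, the organic anion transporter Slco2b1 by -4.75 ± 0.12, Igf1, the insulin-like growth factor, by -4.39 ± 0.10, and the membrane protein Vstm4 by -4.43 ± 0.10. Rims3, a synaptic release protein in neurons, changed by -3.97 ± 0.10, the LIM domain protein Crip2 by -3.95 ± 0.20, and Ptgis, which makes prostacyclin, by -3.93 ± 0.10. Vcam1, an adhesion molecule of red pulp macrophages, read 50257 and 54315 in PBS and 6499, 8268 and 6465 after HY209 (-2.91 ± 0.12), while Spic, the transcription factor needed for red pulp macrophages, fell less, from 13839 and 12936 to 6145, 5046 and 5226 (-1.31 ± 0.10). Slc40a1, the iron exporter ferroportin, was bright on all arrays and read 62809 and 62239 and 27559, 24572 and 23459.8 (-1.32 ± 0.10). Its PBS values lie near the top of the scale, where a change can be compressed. Of 19 iron and heme recycling genes 9 fell (47.4%, against 26.0% of all genes) and 5 rose (26.3%, against 21.5%). Those that rose were the ferroxidase Cp (1.68 ± 0.11), the iron regulator Ireb2 (1.09 ± 0.11), the heme-responsive repressor Bach1 (0.84 ± 0.14), the phagosomal metal transporter Slc11a1 (0.49 ± 0.08) and the siderophore binder Lcn2 (0.44 ± 0.09). Marco, a scavenger receptor of marginal zone macrophages, was the one macrophage gene that rose, from 439.7 and 472 to 1405, 1005 and 1275 (1.57 ± 0.16).

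Complement genes fell more often than genes as a whole. Of 18 tested, 9 fell (50%, against 26.0% of all genes) and 4 rose (22.2%, against 21.5%). Nothing is read from the share that rose. The C1q chains, made by macrophages, were lower, with C1qa at 5809 and 5077 in PBS and 1545, 1414 and 1708 after HY209 (-1.85 ± 0.11), and all 3 chains were also lower than after LPS alone (-0.70 ± 0.10 for C1qa, -0.35 ± 0.09 for C1qb and -0.36 ± 0.10 for C1qc). Factor B, Cfb, which starts the alternative pathway, rose from 188 and 157 to 479.9, 416 and 560.2 (1.99 ± 0.17), and the anaphylatoxin receptor C5ar1 was below background in PBS and at least 1.98-fold higher. The other 2 that rose were the C1 inhibitor Serping1 (0.44 ± 0.09) and Hc, complement component 5 (0.35 ± 0.10), whose call was lost without PBS array 1 (adjusted p = 0.088).

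Lymphocyte and MHC class II genes stood below the untreated level, with part of the distance covered for B cell genes. Among 20 B cell genes 17 fell and 0 rose (median -1.13), and 14 were higher than after LPS alone. Cd79b, a chain of the B cell receptor, read 21380.3 and 21527 in PBS, 4075, 4363 and 4418 after LPS and 6619, 7496 and 7612 after HY209. Its treated arrays lay between the other groups without overlap (-1.58 ± 0.10 against PBS and 0.76 ± 0.09 against LPS, adjusted p = 7.4e-08 and 0.00042). Fcer2a, which encodes CD23, fell most (-3.18 ± 0.17), Fcmr, the IgM receptor, changed by -2.11 ± 0.10, and Pou2af1, a B cell coactivator, by -0.69 ± 0.13 against PBS and 0.91 ± 0.11 against LPS. Of 23 MHC class II and dendritic cell genes 20 fell and 1, the costimulator Cd80 (0.66 ± 0.15), rose, and 11 were higher than after LPS. Cd74, the invariant chain of class II, read 54937 and 52323 in PBS, 12196, 12439 and 13654 after LPS and 18436, 17828 and 20177 after HY209 (-1.52 ± 0.10, and 0.56 ± 0.09 against LPS). H2-DMb1, which helps load peptides on class II, changed by -1.82 ± 0.10 and 0.22 ± 0.09.

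T and NK cell genes had 23 of 26 members lower and 1 higher than PBS (median -1.05). Above LPS alone stood 1 member, where 6.13% of all genes did, and nothing is read from this count. Cd3e, a signalling subunit of the T cell receptor, read 6010.3 and 6077 in PBS and 2503, 2029.7 and 2311 after HY209 (-1.44 ± 0.10, and 0.09 ± 0.09 against LPS, adjusted p = 0.59). Ets1, a lymphoid transcription factor, was the member above LPS (0.59 ± 0.11, adjusted p = 0.0083) and still stood at -1.74 ± 0.12 against PBS. Ctla4, an inhibitory receptor of T cells, was the one that rose, from 184 and 186 to 458, 308 and 393 (1.41 ± 0.16). MHC class I and proteasome genes went the other way, with 22 of 30 higher and 1 lower. The peptide transporter Tap1 changed by 1.45 ± 0.10 and the class I heavy chain H2-K1 by 1.29 ± 0.13, while B2m, the light chain, was near PBS at the top of the scale (0.10 ± 0.09). Among 15 eosinophil, basophil and mast cell genes, Ccr3, the eotaxin receptor of eosinophils, was below background on every LPS and HY209 array and at least 13.7-fold lower than in PBS (1360.4 and 1539). Its list had 4 members higher and 4 lower (26.7% each), close to the shares of all genes (21.5% and 26.0%), so nothing is read from these counts.

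**Figure D3:**
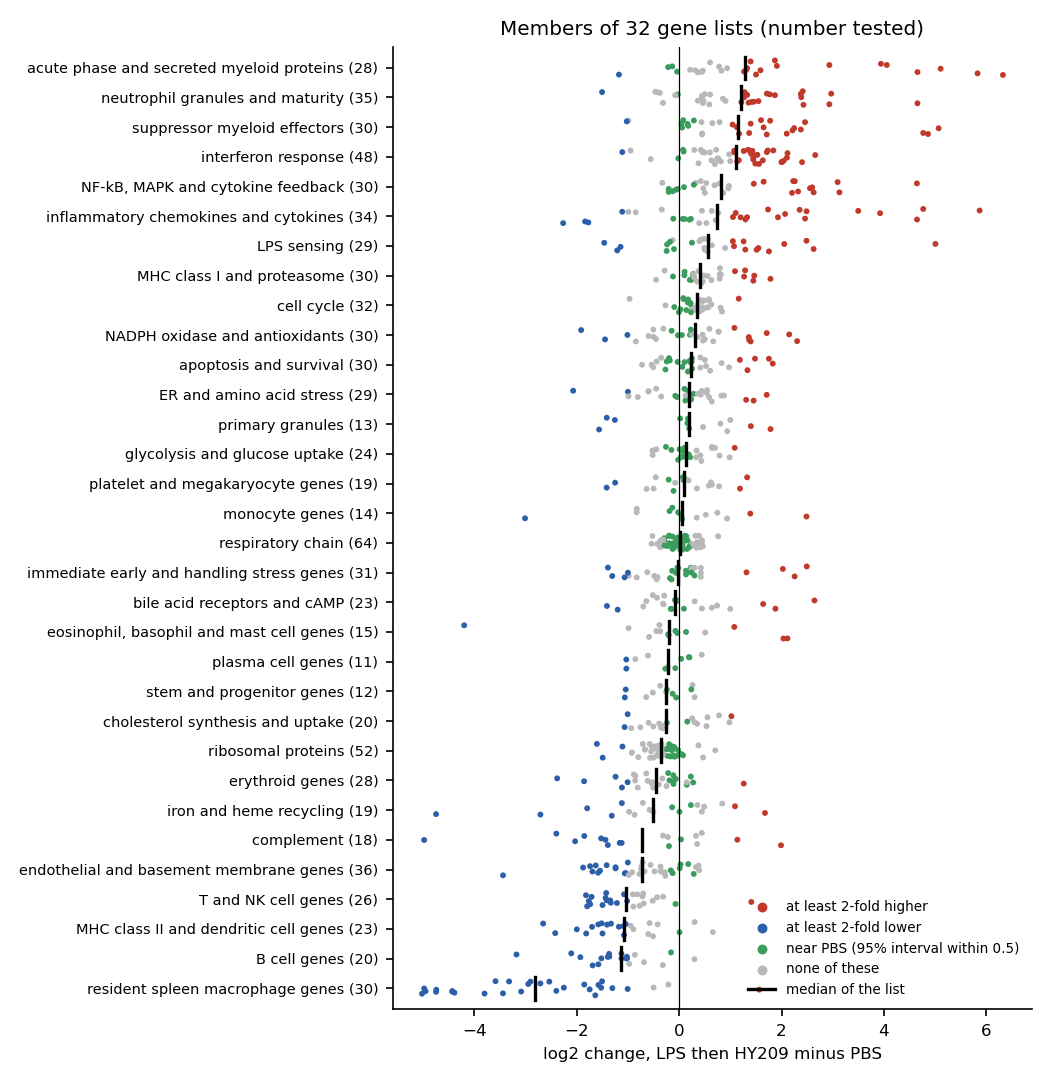
Log2 change (LPS then HY209 minus PBS) of the tested members of 32 gene lists, coloured by class, with a bar at each list's median and the number tested in brackets. Resident spleen macrophage genes have the lowest median (-2.81). The median of acute phase and secreted myeloid proteins is 1.29, or 1.07 with genes below background in a group at their bounds.

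Endothelial, erythroid and ribosomal genes stood below PBS but nearer to it than after LPS alone. Of 36 endothelial and basement membrane genes 23 fell and 4 rose against PBS (median -0.72), and 23 were higher and 0 lower than after LPS. Plvap, a protein of endothelial fenestrae, read 3329 and 3107 in PBS, 312, 262 and 301 after LPS and 1455, 596 and 1206 after HY209. The treated arrays spread widely, with array 2 lowest, and lay between the other groups (-1.74 ± 0.30 against PBS, 2.08 ± 0.27 against LPS, adjusted p = 0.00044 and 0.0011). Igfbp7, a vessel-wall binding protein, showed the same order of arrays, at 2991, 1415 and 2441 against 6439.7 and 6014 in PBS (-1.55 ± 0.24, and 1.84 ± 0.22 against LPS). Without HY209 array 2 the change of Plvap against PBS was -1.32 (adjusted p = 1.4e-05). That array also had the lowest list median of the HY209 arrays (-0.91, against -0.58 and -0.63). Its summed endothelial markers were the lowest of the HY209 arrays too, but Plvap is itself in that sum, so the sum is no separate observation. The part of such cells was not tested. Robo4, a guidance receptor of endothelium, changed by -0.74 ± 0.16 and 1.37 ± 0.14. Stab2, a scavenger receptor of sinusoidal endothelium, was an exception, with 3764 and 3286 in PBS, 350.3, 354 and 365 after LPS and 459, 310 and 404 after HY209 (-3.44 ± 0.16, and 0.14 ± 0.15 against LPS, adjusted p = 0.60).

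A small group of this list reached or passed the untreated level. Ccn2, a matricellular protein induced by mechanical and TGF-beta signals, read 1876 and 1675 in PBS, 531, 471 and 493 after LPS and 1809.5, 1432 and 1552 after HY209. Its treated and PBS arrays overlapped and the LPS arrays lay far below (-0.16 ± 0.12 against PBS with a 95% interval of -0.42 to 0.09, and 1.82 ± 0.11 against LPS, adjusted p = 4.1e-06). The collagen IV chains of the basement membrane were higher than in both other groups. Col4a1 read 928 and 867 in PBS, 461, 472 and 396 after LPS and 1189, 1049.8 and 1094 after HY209 (0.33 ± 0.11 against PBS, adjusted p = 0.028, and 1.48 ± 0.10 against LPS, adjusted p = 1.3e-05). Col4a2 changed by 0.39 ± 0.11 and 1.11 ± 0.10 (adjusted p = 0.012 and 0.00011). The rise of Col4a1 against PBS did not pass the test without PBS array 1, PBS array 3 or HY209 array 1 (adjusted p = 0.065, 0.18 and 0.085), nor that of Col4a2 without PBS array 3 (0.10).

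Of 28 erythroid genes 16 fell and 2 rose against PBS (median -0.45), and 17 were higher than after LPS alone. Slc4a1, the anion exchanger of red cells, read 9055 and 8377 in PBS, 1215, 1055 and 1244 after LPS and 5507, 3263 and 4636 after HY209. The treated arrays lay between the groups, again with array 2 lowest (-1.01 ± 0.18 against PBS, 1.97 ± 0.16 against LPS, adjusted p = 0.00055 and 6.7e-05). Without array 2 the change against PBS was -0.79 (adjusted p = 0.00032). Alas2, the first enzyme of heme synthesis in red cell precursors, changed by -2.38 ± 0.17 and 0.86 ± 0.16, and Trim10, which acts late in red cell maturation, by -1.86 ± 0.11 and 1.34 ± 0.10. Tfrc, the transferrin receptor, was near PBS, at 1359 and 1439 in PBS, 1046, 1125 and 1093 after LPS and 1766, 1515 and 1609 after HY209 (0.23 ± 0.10, and 0.61 ± 0.09 against LPS). The transcription factor Nfe2 (1.26 ± 0.09) and the mitochondrial carrier Slc25a38 (0.27 ± 0.10) were the 2 that rose, the second so little that it also counts as near PBS and lost its call without PBS array 1 or 3 (adjusted p = 0.056 and 0.28) or HY209 array 1 or 3 (0.067 and 0.12). Ribosomal protein genes had 32 of 52 lower and 3 higher than PBS (median -0.36) and 24 higher than LPS. Rpl27a read 2361 and 2517 in PBS, 722, 668 and 611 after LPS and 1041, 805 and 898 after HY209 (-1.49 ± 0.12, and 0.49 ± 0.11 against LPS). Those above PBS were Rpl24 (0.71 ± 0.10), Rplp0 (0.47 ± 0.10) and Rpl7a (0.38 ± 0.10), the last not without PBS array 1 (adjusted p = 0.062).

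Platelet and megakaryocyte genes had 7 of 19 members higher than PBS (36.8%, against 21.5% of all genes) and 5 lower (26.3%, against 26.0%). Against LPS alone 10 were higher. Pf4, platelet factor 4, read 303 and 312 in PBS, 282, 272 and 328 after LPS and 451, 414 and 446 after HY209. The HY209 arrays were above both other groups (0.62 ± 0.11 and 0.71 ± 0.10, adjusted p = 0.00064 and 0.0019), as were those of Gp1bb, a chain of the von Willebrand factor receptor (0.64 ± 0.11 and 0.77 ± 0.10, adjusted p = 0.00045 and 0.001). The integrin chain Itga2b was near PBS, with 316 and 320.2 in PBS, 220.5, 218 and 208 after LPS and 347, 332 and 322 after HY209 (0.09 ± 0.09, and 0.85 ± 0.08 against LPS). Gp9, another chain of the same receptor as Gp1bb, was also near PBS (0.10 ± 0.10). These 4 genes were dim. The 5 that fell were the von Willebrand factor Vwf (-1.42 ± 0.09), the podoplanin receptor Clec1b (-1.25 ± 0.15), the platelet basic protein Ppbp (-0.64 ± 0.11), the lipoxygenase Alox12 (-0.50 ± 0.12) and Gp5 (-0.46 ± 0.14), which associates with the same receptor as Gp9. Alox12 and Gp5 did not pass without PBS array 3 (adjusted p = 0.054 and 0.18), nor Gp5 without HY209 array 2 (0.051). Among the larger rises of this list were those of Selp, the adhesion molecule P-selectin that endothelium also makes (1.33 ± 0.09), and the ATP-gated channel P2rx1 (1.19 ± 0.15), and P2rx1 was lower than after LPS alone (-0.61 ± 0.14, adjusted p = 0.018).

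**Figure D4:**
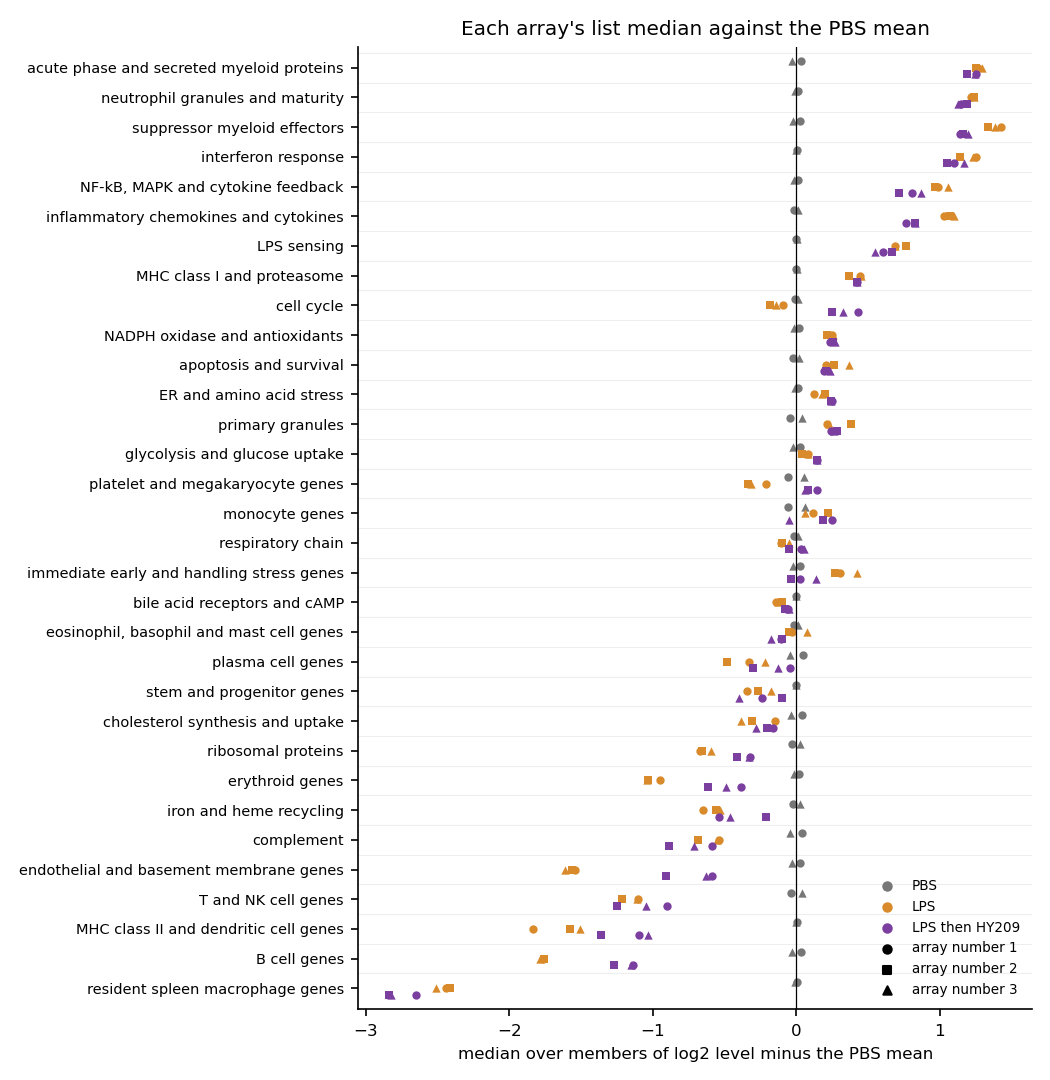
Median log2 level of the members of each list on each array, measured from the mean of the PBS arrays, with colours for groups and symbols for array numbers. For endothelial, erythroid, ribosomal and B cell genes the HY209 arrays lie between the LPS arrays and PBS, for resident spleen macrophage genes they lie below the LPS arrays (-2.65 to -2.84), and for cell cycle genes above both groups (0.25 to 0.43).

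Genes of DNA replication and mitosis were higher after HY209 than in both other groups. Of 32 cell cycle genes 18 rose and 1 fell against PBS (median 0.35), and 19 were higher and 0 lower than after LPS, where the array medians were -0.09 to -0.18 from PBS. The medians of the HY209 arrays were 0.43, 0.25 and 0.32, with array 2 lowest, as it was for the erythroid list (-0.38, -0.62 and -0.49) and the endothelial list. The part of such cells in the cell cycle result was not tested. The changes were small, and 1 reached 2-fold. Mcm10, a DNA replication factor, read 522 and 554 in PBS, 918, 865 and 865 after LPS and 1165, 983 and 1231 after HY209. All treated arrays were above the other arrays (1.16 ± 0.11 against PBS, 0.37 ± 0.10 against LPS, adjusted p = 3.4e-06 and 0.038). Tyms, the thymidylate synthase, changed by 0.84 ± 0.10 and 0.50 ± 0.09, Plk1, the mitotic kinase, by 0.63 ± 0.16 and 0.58 ± 0.14, and Top2a, the topoisomerase of dividing cells, by 0.49 ± 0.14 and 0.87 ± 0.13. Pclaf, a partner of the replication clamp that was picked after its values were seen, read 524 and 583 in PBS, 665, 698 and 612 after LPS and 1319, 1123 and 914 after HY209 (1.10 ± 0.14 and 0.82 ± 0.13). Kif23, a kinesin of cell division, was the member that fell (-0.97 ± 0.10). Pcna, Cdk2 and E2f1 were among 11 members near PBS. The call of Top2a was lost without PBS array 1 or HY209 array 1 (adjusted p = 0.22 and 0.053).

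The letters TTTNGCGC on either strand, bound by E2F factors of the cell cycle, were in 6 of 28 cell cycle genes with a window (21.4%) and in 2.72% of all tested genes with a window. Mcm5, a helicase subunit, is shown as one of these 6. It read 3046 and 2787 in PBS, 2553, 2588 and 2636 after LPS and 4493, 3344 and 4233 after HY209 (0.46 ± 0.12, adjusted p = 0.0079, or 0.081 without PBS array 3, and 0.64 ± 0.11 against LPS). In the 250 bases before its start (chr8:75109259-75109508, plus strand, GRCm38.p6), 2 matches on opposite strands overlap, beginning 153 and 149 bases before the start, and are in capitals. One more set of letters, GAGGAAGT of the myeloid factor PU.1 on either strand, was in 3.75% of all tested genes with a window and in 2 of 22 macrophage genes with a window (9.09%).
Mcm5: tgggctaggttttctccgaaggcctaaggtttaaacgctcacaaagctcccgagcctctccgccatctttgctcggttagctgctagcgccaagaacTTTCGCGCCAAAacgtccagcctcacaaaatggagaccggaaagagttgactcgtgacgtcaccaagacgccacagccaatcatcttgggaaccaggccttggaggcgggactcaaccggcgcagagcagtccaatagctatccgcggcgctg

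Among immediate early genes, which respond to signals and to handling within minutes, the one gene that LPS alone had raised at least 2-fold and that stood near PBS after HY209 was Egr1. Of 31 tested, 12 were near PBS (38.7%, against 46.7% of all genes), 9 rose (29.0% against 21.5%) and 10 fell (32.3% against 26.0%), shares not far from those of all genes from which nothing is read. The median was -0.019. Against LPS alone 9 were lower and 1 higher, where 3.45% and 6.13% of all genes were. Egr1, a zinc finger transcription factor of this class, read 2970.5 and 2755 in PBS, 6619, 7428 and 7041 after LPS and 2904, 2787 and 2704 after HY209. Treated and PBS arrays overlapped and all LPS arrays were more than 2-fold brighter (-0.03 ± 0.09 against PBS with a 95% interval of -0.24 to 0.17, and -1.35 ± 0.08 against LPS, adjusted p = 6.3e-06). Egr1 and Ccn2 were the 2 genes that were near PBS after HY209 among those at least 2-fold changed after LPS alone. Fos, which forms the factor AP-1 with Jun, was not near PBS but below it, with 6039 and 5923 in PBS, 9989.9, 10406 and 10530 after LPS and 2268, 2729.7 and 2394 after HY209 (-1.31 ± 0.10, and -2.10 ± 0.09 against LPS, adjusted p = 4.9e-07 and 3.7e-07). Ier2 also went below PBS, at 321 and 288 in PBS, 731, 692 and 791 after LPS and 247, 225 and 264 after HY209 (-0.42 ± 0.12, adjusted p = 0.01, or 0.12 without PBS array 1). Jun (2.03 ± 0.10), the survival factor Ier3 (2.26 ± 0.09) and the stress gene Gadd45b (2.49 ± 0.12) stayed well above PBS, and the heat shock protein Hsph1 stayed below (-1.39 ± 0.21). Junb (-0.18 ± 0.12) and Zfp36, which destabilises cytokine mRNAs (-0.14 ± 0.09), were near PBS and lower than after LPS (-0.48 ± 0.10 and -0.60 ± 0.08, adjusted p = 0.016 and 0.0017).

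**Figure D5:**
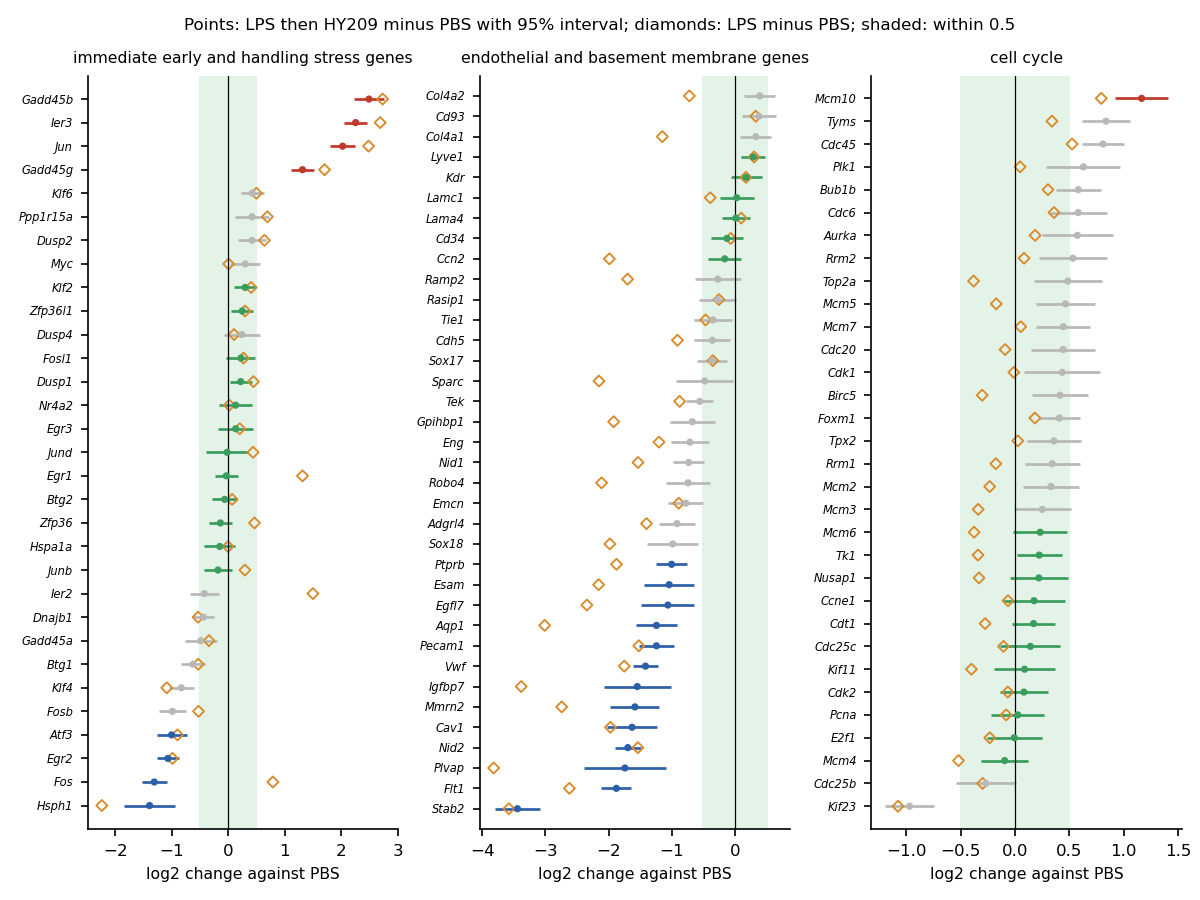
Log2 change against PBS with its 95% interval for each tested gene of 3 lists after LPS and HY209 (points), beside the change after LPS alone (diamonds), with the band within 0.5 shaded. In the first panel Egr1 lies in the band at -0.03 and Fos below it at -1.31, in the second Ccn2 lies in the band at -0.16, and in the third most points lie to the right of their diamonds.

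Genes of the mitochondrial respiratory chain were mostly near PBS, with 40 of 64 members near (46.7% of all genes were), 12 higher and 12 lower, and a median of 0.0089. Ndufs3, a core subunit of complex I, read 1954 and 1984 in PBS and 1988, 2093 and 1924 after HY209 (0.02 ± 0.09). The largest departures in each direction were Ndufb7, of complex I, at 0.76 ± 0.09 and Ndufa4, now assigned to complex IV, at -0.54 ± 0.09. Glycolysis and glucose uptake genes had 10 of 24 members near (41.7%), 8 higher (33.3%) and 4 lower (16.7%), where 46.7%, 21.5% and 26.0% of all genes were. Gapdh read 22713 and 22881 in PBS and 36027, 37463 and 37463 after HY209 (0.70 ± 0.09), and Pkm, the last kinase of the pathway, changed by 0.79 ± 0.10, while Hk2, the inducible hexokinase, was lower (-0.52 ± 0.09). Apoptosis genes had 13 of 30 members near, among them the inhibitor antagonist Diablo (0.06 ± 0.08), 12 higher (40.0%) and 7 lower (23.3%). The share near PBS, 43.3%, was close to that of all genes. The death receptor Fas read 2652 and 2718 and 8905, 9561 and 9645 (1.83 ± 0.09) and the LPS-sensing caspase Casp4 2321 and 2405 and 7633, 8101 and 7708 (1.75 ± 0.09).

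Of 30 NADPH oxidase and antioxidant genes 14 rose (46.7%, against 21.5% of all genes) and 9 fell (30.0%, against 26.0%). Sod2, the mitochondrial superoxide dismutase, read 4750.1 and 4332 in PBS and 21707, 22333 and 22431 after HY209 (2.31 ± 0.09), whereas catalase, Cat, read 1160 and 1098 and 399, 323 and 329.9 (-1.92 ± 0.12). Of 29 ER and amino acid stress genes 13 rose (44.8%) and 7 fell (24.1%), with the asparagine synthetase Asns at 1.45 ± 0.10 and the glutathione-degrading Chac1 at -2.07 ± 0.11. Bile acid receptor and cAMP genes had 8 of 23 members higher (34.8%) and 7 lower (30.4%). The shares that fell in these lists were not far from that of all genes, and nothing is read from them. In the bile acid receptor and cAMP list Per1, a clock gene with cAMP response elements in its promoter, read 795 and 692 and 2595, 2339 and 2729 (1.88 ± 0.11). The muscarinic receptor Chrm3 changed by 2.64 ± 0.12. Against LPS alone Chrm3 was lower (-0.45 ± 0.11, adjusted p = 0.025), and the difference of Per1 was -0.31 ± 0.10 (adjusted p = 0.073). The cAMP effectors Creb1 (-0.05 ± 0.10) and Crem (-0.16 ± 0.12) were near PBS on the brightest probe, but the mean over their probes was called lower (-0.33 and -0.30).

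The brightest genes near PBS were the structural and housekeeping genes Actb (0.08 ± 0.08), Fth1, the ferritin heavy chain (0.01 ± 0.08), Rpl41 (0.03 ± 0.08), Rpl38 (0.02 ± 0.09), Rps20 (0.05 ± 0.09), Rplp1 (-0.11 ± 0.09) and Zyx (-0.03 ± 0.08), the antigen presentation gene B2m, the Fc receptor gamma chain Fcer1g (0.28 ± 0.09, a rise that also passed the test, but not without PBS array 1, at an adjusted p of 0.24, or HY209 array 1, at 0.058) and S100a8. They lie at the top of the intensity scale, which ends at 66399, and a change there can be compressed. The mean over all probes of Rpl38 was called higher (0.49), so its place near PBS rests on the brightest probe.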

How the data were processed

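The 8 arrays were grouped by their titles. The intensity values were deposited by the authors as 1 linear value per probe and array. Per the submitters' processing notes GenomeStudio 2011.1 and R 2.15.0 were used, and per the values the arrays had been quantile normalised together (their quantiles differ by at most 0.0616%) without background subtraction. Another deposited table with 16 columns that match no sample title was not used. Of 25697 probes 23978 had 1 gene symbol, 1719 had none and none had several. Names are those of the platform annotation.

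Intensities were corrected with normexp (offset 50), quantile normalised and put on the log2 scale with limma 3.58.1 in R 4.3.3. A probe was above background over 168.6, the mode of all intensities (148.3) plus 1.645 times their lower-side spread, and was kept if above it on at least 2 arrays. This left 14786 probes, and the brightest probe of each gene on average stood for it, for 10252 of 16593 genes. Probes of 45 tested genes passed the test in opposite directions, and none of these is named. One fit over all 8 arrays (5 residual and 6.59 prior degrees of freedom) gave the log2 changes, with Benjamini-Hochberg adjusted p-values over all genes. The number of arrays limits the precision, and the median standard error was 0.109 against PBS. Where no array of a group was above background, a change is given as a bound against the threshold. The fit was tested on simulated data.

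The genes named were taken from the 12 largest rises and 12 largest falls with groups that do not overlap, up to 4 largest changes and 2 genes near PBS per list, list members where 5 or fewer passed in a direction, genes near PBS that were at least 2-fold changed after LPS, the 10 brightest genes near PBS and 15 markers, and not all of these are described. Other genes (C1qa, C1qb, Ccl5, Cd3e, Cd74, Cd79b, Csf1, Ctsg, Cxcl1, Cxcl9, Elane, F10, Gp1bb, Gp9, Ier2, Igfbp7, Junb, Ly6c1, Mcm5, Mmp14, Mpo, Nfkbia, Pcna, Pf4, Plk1, Pou2af1, Robo4, Slc40a1, Spic, Tnf, Tnfaip3, Top2a, Vcam1 and Zfp36, and those said so in the text) were chosen after their values were seen. The groups, gene lists and named markers were chosen with earlier results of these data known, so they give no independent support. The alternatives tried were other background corrections, scalings, filters and probe summaries, the 5 arrays alone, a robust fit with trend, the array number as a block, other margins for being near PBS, and each array left out. Figures were drawn with matplotlib 3.10.9. One gene is not reported here.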

Additional observations from a re-analysis of the deposited data

How the results depend on the processing

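Against PBS, the counts of 2209 genes higher and 2661 lower and of 502 and 617 at least 2-fold changed stayed within 1.5 times their values under each alternative. The count near PBS depended on the settings. It was 4787, and it became 3118 with a normexp offset of 16, 10424 without the filter on dim probes (which tests more genes), 1229 with a margin of 0.3 and 8441 with a margin of 1. With each array left out in turn, genes higher numbered 1668 to 2213 and lower 2120 to 2679, at least 2-fold higher 502 to 532 and lower 590 to 662, and near PBS 3292 to 4863. The 982 genes called against LPS ranged from 400 to 1125, and the 5707 genes called between LPS alone and PBS from 4546 to 5900. The lowest of the first range came without HY209 array 1. Scaling to the 75th percentile in place of quantiles gave the same counts, but it tests nothing here, since the deposited arrays already share their quantiles.

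With the array number as a replicate block, 2318 genes were higher and 2699 lower, 508 and 591 at least 2-fold, 4838 near PBS, 1209 called against LPS and 5811 between LPS alone and PBS. Whether arrays of the same number belong together is not settled by their values. The deviations of 7 same-numbered pairs correlated at -0.19 to 0.30, with 2 of 7 over 0.1. With 2 PBS arrays the deviations of one mirror those of the other, so the sign for a PBS array depends on the number it is given. Under the block, 4 of 316 named genes lost their call (Fcnb, Slamf7, Irf3 and Cdh5) and 3 gained one. The numbers are those of the titles, and the description of PBS array 3 calls it the second replicate. With the numbers of the descriptions as a replicate block, an alternative chosen after seeing the data, 2262 genes were higher and 2713 lower, 4964 near PBS and 1270 called against LPS. The correlations were then 0.038 to 0.30, with 3 of 7 over 0.1, and 2 named genes lost their call (Pdia3 and Cdh5) and 1 gained one.

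No named gene reversed its direction past the test under the alternatives run. Those that lost their call numbered 20 without PBS array 1 and 22 without PBS array 3, against 11, 6 and 7 without HY209 array 1, 2 and 3. With the mean of all probes 3 lost theirs (Irf3, Pfkm and Cdca3) and 8 gained one. With 2 PBS arrays, leaving out either leaves a single array that is assumed to vary like the other groups.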

Other observations

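Of 14 monocyte genes 6 were higher than PBS (42.9%, against 21.5% of all genes) and 3 lower (21.4%, against 26.0%). Cx3cr1, the fractalkine receptor of patrolling monocytes, read 1178 and 1463 in PBS, 199, 189 and 205 after LPS and 231, 244 and 195 after HY209 (-3.01 ± 0.14 against PBS, adjusted p = 9.3e-09). Both groups given LPS lay far below PBS. Ly6c1, one of the Ly6C antigens that the Gr1 antibody can bind, went the other way, from 8957 and 10216 to 15628, 15849.6 and 16536 (0.75 ± 0.09, adjusted p = 2.9e-05). Plasma cell genes had 5 of 11 members lower (45.5%) and 1 higher (9.09%). Mzb1, a chaperone of antibody-secreting and marginal zone B cells, read 9283 and 8742 in PBS, 2692, 2402 and 2713 after LPS and 4946, 3796 and 4664 after HY209. Its HY209 arrays lay between the other groups (-1.03 ± 0.12 against PBS, 0.79 ± 0.11 against LPS, adjusted p = 1.9e-05 and 0.0015). Of 12 stem and progenitor genes 4 fell (33.3%, against 26.0% of all genes) and 0 rose (against 21.5%). Those that fell include the transcription factor Lmo2 (-1.04 ± 0.09) and Egfl7, which endothelium also makes (-1.06 ± 0.19).

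Of 20 cholesterol genes 7 were higher than PBS (35.0%, against 21.5% of all genes) and 8 lower (40.0%, against 26.0%). Srebf2, the master regulator of sterol synthesis, changed by 1.02 ± 0.13 and the synthesis enzyme Msmo1 by 0.98 ± 0.09, whereas the sterol exporter Abcg1 (-1.07 ± 0.10) and the sterol sensor Nr1h3 (-1.01 ± 0.18) were lower. Abcg1 was also below LPS alone (-0.42 ± 0.09, adjusted p = 0.013). Among eosinophil and basophil genes, the ribonucleases Ear6 and Ear10 differed. Ear6 read 172 and 166 in PBS, 743, 705 and 725 after LPS and 507, 504 and 509 after HY209, and Ear10 read 673 and 568, 589.9, 634 and 685 and 442, 444 and 416. Both were lower than after LPS alone (-0.58 ± 0.08 and -0.63 ± 0.10, adjusted p = 0.0013 and 0.0032), but Ear6 stood above PBS (2.12 ± 0.09) and Ear10 below it (-0.59 ± 0.11). The ribonuclease genes of this family are near-identical copies, and their probes were not checked for shared targets.

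A few genes outside the lists, chosen after their values were seen, stood away from both other groups. Dnase1l3, a secreted DNase of macrophages and dendritic cells, read 2984 and 3055 in PBS, 3048, 3025 and 3191 after LPS and 1514, 1756 and 2051 after HY209. The first 2 groups overlapped and the HY209 arrays lay below both (-0.80 ± 0.12 against PBS and -0.84 ± 0.11 against LPS, adjusted p = 0.00016 and 0.0011). Uhrf1, which keeps DNA methylation through replication, was higher than in both (0.93 ± 0.16 and 0.80 ± 0.14, adjusted p = 0.00045 and 0.0073), as was Clspn, of the replication checkpoint (0.99 ± 0.12 and 0.60 ± 0.11, adjusted p = 2.8e-05 and 0.0073).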
